A study of Homo sapiens with 6 samples.

Results

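The genes described here are 41 components and regulators of the actin-myosin machinery, most of them linked to serum response factor (SRF), in A375, a human malignant melanoma cell line. They were taken by symbol from the gene table of the series, and all 41 were found among its 18539 genes. The list covers actins and their crosslinkers, transgelins and calponins, tropomyosins, myosin II with its light chains and light chain kinase, focal adhesion and LIM domain proteins, SRF itself, caveolar coat proteins, vimentin and lamin A/C. It was not drawn from measured values, but it was proposed with other results of these data known.

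Non-muscle myosin II pulls on actin filaments that are crosslinked by alpha-actinins and filamins, decorated by tropomyosins, calponins and caldesmon, and anchored to the matrix at focal adhesions. The kinases MYLK and ROCK drive phosphorylation of the myosin regulatory light chains and thereby contraction. SRF binds a DNA element called the CArG box and works with either of 2 kinds of partner. Myocardin-related factors (MRTFs) are held back by monomeric actin and drive contractile and cytoskeletal genes, and ternary complex factors (TCFs) act downstream of ERK and drive immediate early genes.

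Both groups were cultured A375 cells infected with lentivirus in polybrene (8 μg/ml) and selected for 2 weeks in puromycin (2 μg/ml). The shControl group (3 libraries) received a control short hairpin RNA and the shMMP9 group (3 libraries) a hairpin against the coding region of MMP9, a secreted gelatinase. The shMMP9 cells rest on 1 hairpin sequence, and no label says whether the cells were clones or pools or whether replicates were separate cultures, and the tests below therefore reflect library-to-library spread, part of which could be technical. The series asks how MMP9 depletion alters melanoma cell transcription.

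Levels are scaled counts, gene counts brought by the authors to a common upper quartile. Differences are log2(scaled count + 1), shMMP9 minus shControl, which understates changes of weakly expressed genes. Libraries held 21854123 to 28005552 estimated reads. Mitochondrial genes took 1.64 to 1.79% of them in shControl and 0.617 to 0.708% in shMMP9. Of the 15 tested genes of the mitochondrial genome 14 fell (32.5% of all genes), with a median log2 fold change of -1.22. The part of this difference in the members' results was not tested. MMP9 stood at 26.1, 24.3 and 28.7 scaled counts in shControl replicates 1 to 3 and at 16.2, 14.6 and 17.1 in shMMP9, and the groups did not overlap (log2 fold change -0.69, SE 0.0847, limma adjusted p = 1.25e-05). Of 8 melanocyte and melanoma markers, 6 had values. Among them SOX10, the neural crest and melanocyte transcription factor, had a scaled count of 378 ± 18.4 in control cells and of 785 ± 40.6 in depleted cells (SD, n = 3). S100B rose from 9.46 ± 0.715 to 28.1 ± 1.35, and MITF, the regulator of pigment genes, fell from 35.5 ± 2.48 to 27.7 ± 0.876 (log2 fold change -0.34, limma adjusted p = 0.000666). The pigment genes PMEL, MLANA and TYRP1 were at 1.96 or less in every library.

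Promoters with a CArG box are shown first, only for the members that fell and for SRF. The box is the element through which SRF reaches its targets. RefSeq promoter sequences (GRCh38.p14, 250 bases before to 50 bases after a transcription start) were matched by symbol for 37 of the 41 members. ACTB, TAGLN, MYL9 and CAVIN1 had no such sequence and could not be searched. The box was searched on the strand of the gene, which covers both strands because the motif is its own reverse complement. The 6 members below had a box and fell in shMMP9, and SRF, which did not pass the test, had 2 boxes. Each line gives 30 bases with the box in capitals, 5′ to 3′ on the strand of the gene.
ACTG1, chr17:81512874-81512903, minus strand: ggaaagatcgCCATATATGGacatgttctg
CNN2, chr19:1026509-1026538, plus strand: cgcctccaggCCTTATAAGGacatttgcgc
FHL1, chrX:136196911-136196940, plus strand: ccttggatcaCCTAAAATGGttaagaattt
FLNA, chrX:154374709-154374738, minus strand: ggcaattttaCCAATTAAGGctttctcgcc
MYLK, chr3:123620623-123620652, minus strand: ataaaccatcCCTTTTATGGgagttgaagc
TPM4, chr19:16067355-16067384, plus strand: aatcctaggtCCAAATAAGGcgagggctgc
SRF, chr6:43171229-43171258, plus strand: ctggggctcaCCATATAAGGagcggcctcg
SRF, chr6:43171249-43171278, plus strand: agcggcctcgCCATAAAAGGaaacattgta

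In ACTG1, FLNA and MYLK the box began 94 bases before the start, and in CNN2 89 bases before it. Some of these starts lie inside the gene as GENCODE 29 gives it, by 263783 bases in MYLK (chromosome 3, 123610049 to 123884331), 50345 in FHL1, 11048 in ACTG1 and 517 in TPM4. The gene table does not separate products of different starts, so it does not show that the start with the box is the one in use. Other members with a box were ACTN1, FHL2 and TGFB1I1, none of which passed the test. Altogether 10 of 37 members (27%) held a box, against 1.61% of 11539 tested genes with a promoter in the table. By promoter, 12 of 80 (15%) held one, against 1.15% of 16861 promoters of tested genes and 1.29% of all 35116 in the table. Several of the genes are textbook SRF targets, so the high share describes the list. Of the 10 members with a box 6 fell and none rose, and of the 27 without one 20 fell and 3 rose. Over all genes tested, 32.5% fell and 25% rose. Falls among the members were thus not confined to promoters with these letters. The search says nothing of boxes outside the window or of diverged boxes.

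Of the 41 members, 29 fell (70.7%), 3 rose (7.32%) and 9 did not pass at a limma adjusted p under 0.05. Over all 17194 genes tested, 32.5% fell and 25% rose, 57.5% in either direction. Among all genes, the excess of falls over rises depended on the scaling. With median-of-ratios scaling 4945 genes fell and 4949 rose, and with total-read scaling 4898 fell and 4988 rose. Under each of these scalings 27 members fell and 4 rose. The median log2 fold change was -0.50 over the members and -0.05 over all genes. In bulk RNA, fewer cells of a type and less RNA per cell cannot be told apart. Falls of at least 2-fold that passed the test numbered 12 among the members, against 4.96% of all genes, and no member rose that far (3.22% of all genes). The groups did not overlap in 33 members (62.7% of all genes): in 29 the shMMP9 libraries were all the lower ones (35.1%), and in 4 all the higher ones (27.6%).

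All 41 members passed the filter on low values. CNN1 reached 10 reads in its 3 shControl libraries and in no shMMP9 library, so it could only be tested because it was higher in shControl. The counts above of falls and of groups that did not overlap include it. FLNC reached 10 reads in 3 shControl and 2 shMMP9 libraries. Among the 34 members at a mean scaled count of 30 or more, 22 fell and 3 rose, against 35.3% and 31.4% of the 6337 genes above the same level.

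**Figure D1:**
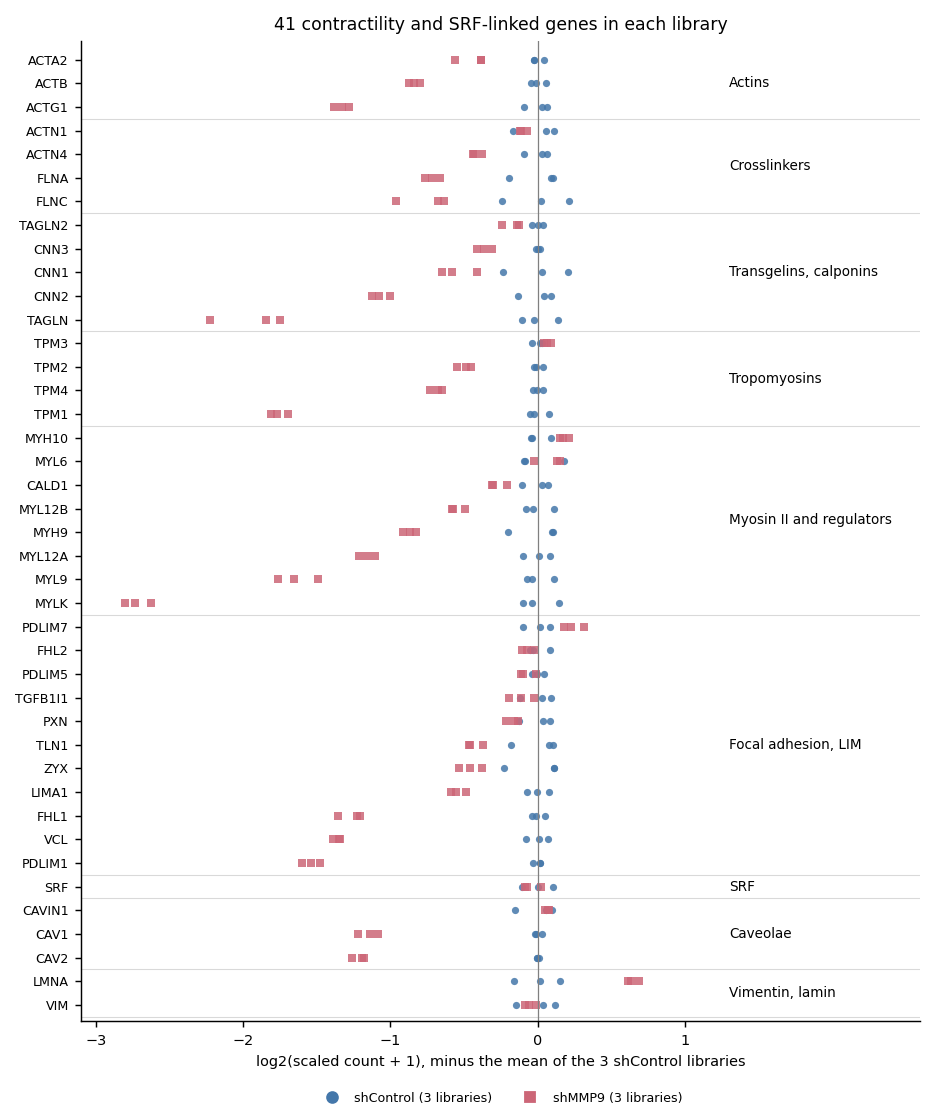
Each row is a member and each point a library (blue circles, shControl; red squares, shMMP9), plotted as log2(scaled count + 1) minus the mean of the 3 shControl libraries. Rows are grouped by role. MYLK lies farthest to the left and LMNA farthest to the right, while SRF and VIM overlap between groups.

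The cytoplasmic actins, which form most of the filaments in non-muscle cells, fell by unequal amounts. ACTB read 3624, 3883 and 3708 in shControl and 2085, 2034 and 2142 in shMMP9 (log2 fold change -0.84, SE 0.0645, adjusted p = 1.34e-07). ACTG1 read 3471, 3856 and 3771 in shControl and 1473, 1416 and 1517 in shMMP9 (log2 fold change -1.33, SE 0.066, adjusted p = 1.66e-09). The groups were far apart for both genes. ACTA2, smooth muscle actin, was weakly expressed, at 17.9, 17.9 and 18.8 against 13.7, 12.03 and 13.7, and fell by 0.44 on the log2 scale (adjusted p = 0.000452). FAS, on the opposite strand, overlaps 12.8% of the ACTA2 exon bases and rose by 0.39, and without a stated strand setting their reads cannot be told apart.

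Per kilobase of the principal coding transcript in GENCODE 29, the 3 actins summed to 3599 ± 153 scaled counts per kb in shControl and 1747 ± 51.1 in shMMP9 (SD, n = 3), 0.485 times the control. Within this sum ACTG1 went from 45.5% ± 0.744 to 37.3% ± 0.208 and ACTB from 54.1% ± 0.741 to 62.2% ± 0.234. ACTB therefore took a larger share of a smaller pool in all 3 shMMP9 libraries. With 3 libraries against 3 the exact permutation test gave p = 0.1 (two-sided) for each of these shares, the smallest it can give, and 0.11 after Benjamini-Hochberg adjustment over 32 sums and shares of 9 families.

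**Figure D2:**
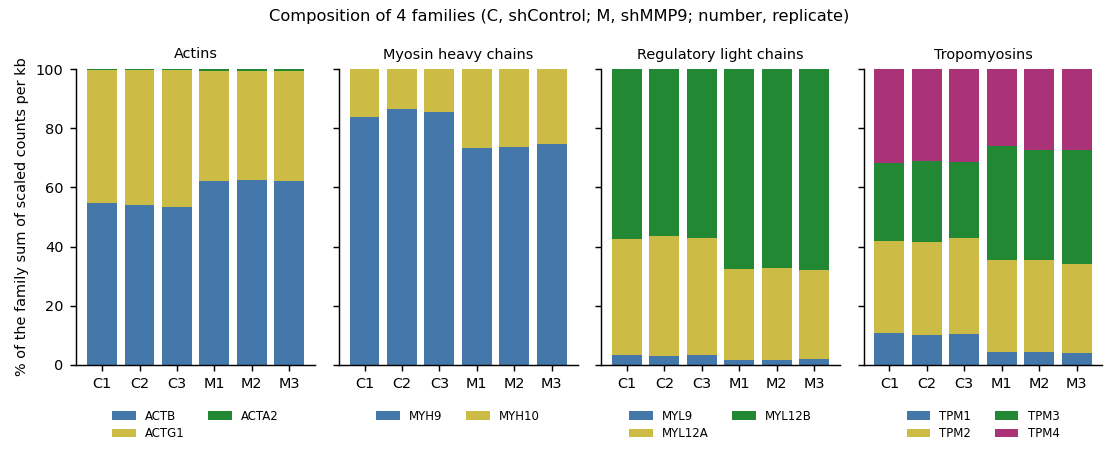
Stacked bars give the share of each gene in its family sum of scaled counts per kb, for every library (C1 to C3, shControl; M1 to M3, shMMP9). ACTG1, MYH9, MYL12A and TPM1 take smaller shares in the 3 shMMP9 bars, and ACTB, MYH10, MYL12B and TPM3 larger ones.

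Among the crosslinkers, the filamin FLNA and the alpha-actinin ACTN4 fell. FLNA, which joins filaments into orthogonal networks, went from 2077, 2549 and 2525 to 1440, 1398 and 1498 (log2 fold change -0.72, SE 0.0789, adjusted p = 4.65e-06). ACTN4 went from 1306, 1453 and 1415 to 1028, 1025 and 1071 (log2 fold change -0.42, adjusted p = 4.22e-05). ACTN1, its close relative at stress fibres, overlapped between groups at 339, 412 and 397 against 350, 353 and 362 (log2 fold change -0.10, adjusted p = 0.19). Its low shControl value came from replicate 1, and without that library it passed at -0.19 (adjusted p = 0.000753). The muscle filamin FLNC was near the detection limit, with 25, 49 and 34 estimated reads in shControl and 13, 10 and 4 in shMMP9 (adjusted p = 0.000749).

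Transgelins and calponins bind along actin filaments and are known as smooth muscle markers or their relatives. TAGLN, TAGLN2, CNN2 and CNN3 fell. TAGLN (chromosome 11, 117199321 to 117204782) went from 11.5, 12.2 and 13.8 to 1.88, 2.75 and 3.02, a ratio of means of 0.204 (log2 fold change -1.94, SE 0.137, adjusted p = 5.82e-08). Its convergent neighbour PCSK7 covers 11.4% of TAGLN exon bases on the other strand and rose by 0.14. CNN2, a calponin of non-muscle cells, went from 163, 191 and 184 to 84.4, 81.6 and 88.7 (log2 fold change -1.07, adjusted p = 7.01e-09). CNN3 fell less, from 209, 211 and 207 to 157, 168 and 162 (log2 fold change -0.36). Its groups stood clearly apart because its replicates were tight.

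TAGLN2, by far the more abundant transgelin, had 815, 861 and 842 against 770, 710 and 763 (log2 fold change -0.17, adjusted p = 0.0158). Leaving out shControl replicate 3 or shMMP9 replicate 2 ended this call (adjusted p = 0.0515 and 0.103), as did total-read scaling (0.0817), median-of-ratios scaling (0.0907) and a fit with no variance trend (0.0554). CNN1, the smooth muscle calponin, was barely detected, with 26, 13 and 19 estimated reads in shControl and 2, 3 and 7 in shMMP9. It passed the filter on low values through shControl alone, so no test is given for it.

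Tropomyosins, coiled coils that lie along the filament and set which myosins and severing factors reach it, split by gene. TPM1 (chromosome 15, 63042632 to 63071915) went from 311, 283 and 289 to 90.2, 85.6 and 83.3 (log2 fold change -1.76, SE 0.052, adjusted p = 1.18e-11). TPM4 went from 585, 558 and 569 to 343, 363 and 357 (log2 fold change -0.69), and TPM2 from 312, 308 and 323 to 223, 229 and 214 (log2 fold change -0.50). TPM3 did not fall: it read 598, 604 and 575 against 630, 611 and 619 (log2 fold change 0.07, adjusted p = 0.257). It passed as a rise of 0.12 with median-of-ratios scaling (adjusted p = 0.0491), of 0.12 with total-read scaling (adjusted p = 0.0346) and of 0.13 with limma-voom (adjusted p = 0.0197).

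Per kb, the share of TPM1 in the tropomyosin sum went from 10.4% ± 0.387 to 4.21% ± 0.159 and that of TPM3 from 26.4% ± 0.792 to 38.03% ± 0.79 (SD, n = 3). TPM2 held 31.7% ± 0.823 and 30.8% ± 0.686, shares that overlapped between groups. Each tropomyosin gene makes several isoforms, which a gene table does not resolve. TPM1-AS, antisense over 16.1% of the TPM1 exon bases, fell as well, by 0.96 at 2.47 scaled counts or less. Among all 41 members, TPM4 had the highest share of 75-base stretches found in other genes (9.37%), mostly shared with the processed pseudogene AC098614.1 (7.83%).

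Myosin II and its regulators held the largest change in the list. MYLK, myosin light chain kinase, went from 47.3, 49.4 and 56.3 to 6.41, 7.38 and 6.80, a ratio of means of 0.135 (log2 fold change -2.72, SE 0.0852, adjusted p = 1.88e-11). The regulatory light chain genes, whose products this kinase phosphorylates, fell together. MYL9, the contractile form (chromosome 20, 36541484 to 36551447), went from 28.6, 25.1 and 25.7 to 7.72, 7.06 and 8.75 (log2 fold change -1.64, adjusted p = 7.23e-09). MYL12A went from 157, 149 and 138 to 67.8, 65.4 and 63.0 (log2 fold change -1.16, adjusted p = 1.33e-09). MYL12B, its neighbour on chromosome 18, went from 232, 210 and 203 to 152, 143 and 144 (log2 fold change -0.55, adjusted p = 2.08e-06).

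The 259 tested genes of chromosome 18 had a median log2 fold change of -0.42. Relative to that median MYL12A stood at -0.74 and MYL12B at -0.13, so the fall of MYL12B was close to that of its chromosome. The part of the chromosome in these 2 changes was not tested. Per kb the 3 regulatory light chain genes summed to 301 ± 20.03 in shControl and 173 ± 5.67 in shMMP9. MYL12B held 57.02% ± 0.558 of the sum in shControl and 67.6% ± 0.353 in shMMP9, MYL12A 39.9% ± 0.661 and 30.8% ± 0.52, and MYL9 3.12% ± 0.115 and 1.61% ± 0.194.

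The myosin II heavy chains moved in opposite directions. MYH9, heavy chain of myosin IIA, went from 616, 759 and 764 to 388, 375.3 and 400 (log2 fold change -0.87, SE 0.0739, adjusted p = 3.61e-07). MYH10, heavy chain of myosin IIB, rose from 120, 120 and 132 to 144, 138 and 140 (log2 fold change 0.18, SE 0.051, adjusted p = 0.009). The rise is small and its call was lost when shMMP9 replicate 1 was left out (adjusted p = 0.054) or no variance trend was fitted (0.0503). Per kb MYH10 went from 14.6% ± 1.34 to 26.1% ± 0.623 of the pair, and the sum of the pair from 110 ± 11.6 to 69.4 ± 1.83. NDEL1, which overlaps 0.799% of MYH10 exon bases on the other strand, rose by 0.17.

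MYL6, the essential light chain shared by both myosins, read 494, 408 and 410 in shControl and 483, 478 and 427 in shMMP9, with overlapping groups (log2 fold change 0.09, adjusted p = 0.344). Replicate 1 was the high shControl library here, and without it MYL6 passed as a rise of 0.18 (adjusted p = 0.0067). CALD1, caldesmon, an inhibitor of actomyosin, went from 160, 141 and 155 to 123, 132 and 122 (log2 fold change -0.27, adjusted p = 0.00095).

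**Figure D3:**
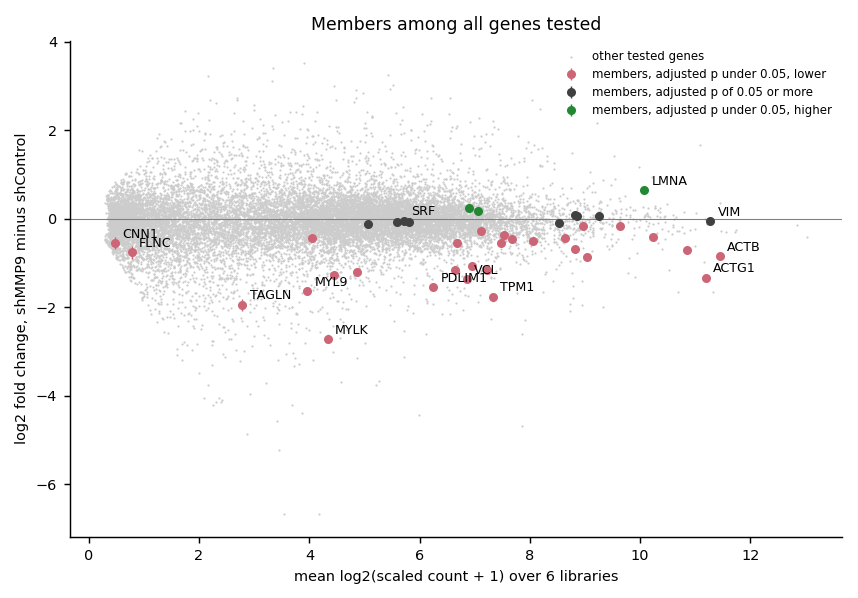
Mean level over the 6 libraries (x axis, log2(scaled count + 1)) against log2 fold change (y axis) for all 17194 tested genes in grey, with members in colour and error bars of 1 SE. MYLK is the lowest member, and LMNA is the highest of the 3 that rose.

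At focal adhesions, 7 of 11 members fell (63.6%), 1 rose (9.09%) and 3 did not pass. Over all genes tested, 32.5% fell and 25% rose. VCL, vinculin, which ties talin to actin under load, went from 185, 174 and 194 to 69.6, 71.6 and 71.9 (log2 fold change -1.36, SE 0.0513, adjusted p = 1.08e-10). The opposite-strand gene AP3M1 overlaps 11.1% of its exon bases and fell by 0.40. PDLIM1, a PDZ and LIM domain protein of stress fibres (chromosome 10, 95237572 to 95291024), went from 125, 130 and 130 to 45.3, 41.6 and 43.5 (log2 fold change -1.54, SE 0.0512, adjusted p = 3.25e-11). FHL1, a LIM-only protein of striated and smooth muscle, went from 34.1, 32.6 and 32.1 to 13.7, 13.5 and 12.2 (log2 fold change -1.26, adjusted p = 8.17e-09).

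TLN1, ZYX and LIMA1 fell less on the log2 scale than VCL, PDLIM1 and FHL1, a difference that was not tested. TLN1, talin, which links integrins to actin, had a log2 fold change of -0.43 (adjusted p = 0.000121), from 409, 498 and 488 to 336, 335 and 357. ZYX, zyxin, a sensor of strained filaments, had one of -0.46 (adjusted p = 0.000279), from 204, 258 and 258 to 173, 164 and 183. LIMA1, which stabilises filaments, had one of -0.54 (adjusted p = 1.52e-06), from 129, 116 and 121 to 82.9, 86.7 and 80.8. Groups did not overlap for any of them.

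PXN, paxillin, a scaffold, was the weakest call among the falls, at 483, 559 and 541 against 472, 453 and 479 (log2 fold change -0.17, adjusted p = 0.0238). It was lost under median-of-ratios scaling (adjusted p = 0.114), total-read scaling (0.0992), limma-voom (0.0802) and a fit with no variance trend (0.0883), and without shControl replicate 2 or 3 or shMMP9 replicate 1 or 2 (adjusted p = 0.0906, 0.0905, 0.0702 and 0.104). FHL2, PDLIM5 and TGFB1I1 (Hic-5, a paxillin relative) had log2 fold changes of -0.07, -0.08 and -0.11, with overlapping groups and adjusted p-values of 0.312, 0.261 and 0.197. TGFB1I1 passed without shControl replicate 1, at -0.17 (adjusted p = 0.0395). PDLIM7, another PDZ and LIM domain protein, rose from 102, 116 and 110 to 128, 124 and 136 (log2 fold change 0.24, SE 0.0582, adjusted p = 0.00318), opposite to PDLIM1.

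SRF read 48.9, 52.7 and 56.5 in shControl and 49.5, 49.9 and 53.5 in shMMP9. Its groups overlapped (log2 fold change -0.05, SE 0.0629, adjusted p = 0.547), and it passed under none of the 15 alternatives tried. The transcript level of SRF does not measure its activity.

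Caveolins, the membrane proteins of caveolae, fell while the coat gene CAVIN1 did not. CAV1 went from 219, 227 and 221 to 101, 104 and 94.9 (log2 fold change -1.15, SE 0.0492, adjusted p = 3.7e-10). CAV2, its neighbour on chromosome 7, went from 44.0, 43.3 and 43.5 to 17.6, 18.5 and 18.7 (log2 fold change -1.21, SE 0.0617, adjusted p = 2.19e-09). Within the pair, CAV2 made up 16.0% ± 0.331 of the pair per kb in shControl and 15.1% ± 0.861 in shMMP9, shares that overlapped (exact permutation p = 0.3, adjusted p = 0.3). CAVIN1 read 405, 482 and 470 against 477, 473 and 468 (log2 fold change 0.07, adjusted p = 0.378).

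VIM, vimentin, the intermediate filament of mesenchymal cells, overlapped between groups at 2271, 2726 and 2574 against 2368, 2412 and 2492 (log2 fold change -0.05, adjusted p = 0.556). It passed as a fall of 0.13 without shControl replicate 1 (adjusted p = 0.022). LMNA, which encodes the nuclear lamins A and C and is known to scale with tissue stiffness, rose from 772, 957 and 872 to 1339, 1320 and 1389 (chromosome 1, 156082573 to 156140089). Its log2 fold change of 0.64 (SE 0.0717, adjusted p = 5.18e-06) was the largest rise among the members. The actins and most focal adhesion members fell, but PDLIM7 rose as well and 3 focal adhesion members did not pass.

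Replicate 1 stood apart from the other shControl libraries in part of the list. It lay furthest below their mean for FLNC, ZYX, MYH9 and FLNA (by -0.36, -0.34, -0.31 and -0.29 on the log2 scale) and furthest above it for CNN1 and MYL6 (by 0.31 and 0.27). Across the 41 members this deviation ran with transcript length (Spearman correlation of -0.36), and across 6244 genes at a mean scaled count of 30 or more it hardly did (-0.03). Members share libraries and are not independent. Without replicate 1 of shControl, 32 members fell and 4 rose, while over all genes falls went from 5584 to 5714 and rises from 4304 to 4511. The part of this library in single results, beyond those named above, was not tested.

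Regulators upstream of these genes are given next. Of 29 genes of the small GTPase, ROCK, cofilin and MRTF/TCF pathway 11 rose and 11 fell (37.9% each, against 25% and 32.5% of all genes), with a median log2 fold change of 0.05. RHOA, the GTPase that starts stress fibre assembly, fell from 481 ± 8.16 to 376 ± 11.9 (SD, n = 3, log2 fold change -0.36), while RHOB rose by 0.74 and RHOC by 0.45. ROCK1 fell by 0.48, close to the median of its chromosome 18, and ROCK2 rose from 91.9 ± 2.00 to 149 ± 6.29 (log2 fold change 0.69). Also higher were ARHGAP5, which encodes a GTPase-activating protein, by 1.08 and the cofilin phosphatase gene SSH1 by 0.52. MRTFA fell from 26.9 ± 3.18 to 20.5 ± 1.01 (log2 fold change -0.37, adjusted p = 0.00261), and MRTFB had a log2 fold change of 0.17 (adjusted p = 0.116).

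Known SRF targets outside the list were counted by class. Of 12 MRTF-type targets 8 fell (66.7%, against 32.5% of all genes) and 3 rose (25%, as over all genes), with a median of -0.999. The matricellular genes CCN1 and CCN2 (CYR61 and CTGF in the table) had log2 fold changes of -2.60 and -1.83, ANKRD1 one of -2.70, and the actin-linked genes NEXN and MICAL2 -1.68 and -1.24. THBS1, a matrix glycoprotein gene, had one of -1.15. Chosen after their values were seen, the 3 that rose were the integrins ITGA5 and ITGB1 and the LIM protein gene LPP, by 0.57, 0.22 and 0.32.

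Of 10 TCF-type targets 9 rose (90%, against 25% of all genes) and none fell (32.5% of all genes), with a median of 1.18. EGR1, EGR2 and EGR3 rose by 2.73, 2.40 and 2.42, NR4A1 by 1.61, FOS by 1.36 and IER3 by 0.47. The gene that did not pass, IER2, had a log2 fold change of -0.01 (adjusted p = 0.846) and was singled out after its value was seen. The lists were put together with earlier results known, several MRTF-type genes are also YAP targets, and EGR and FOS genes also answer to ERK by other routes, so the classes are a description. A difference between them was not tested.

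**Figure D4:**
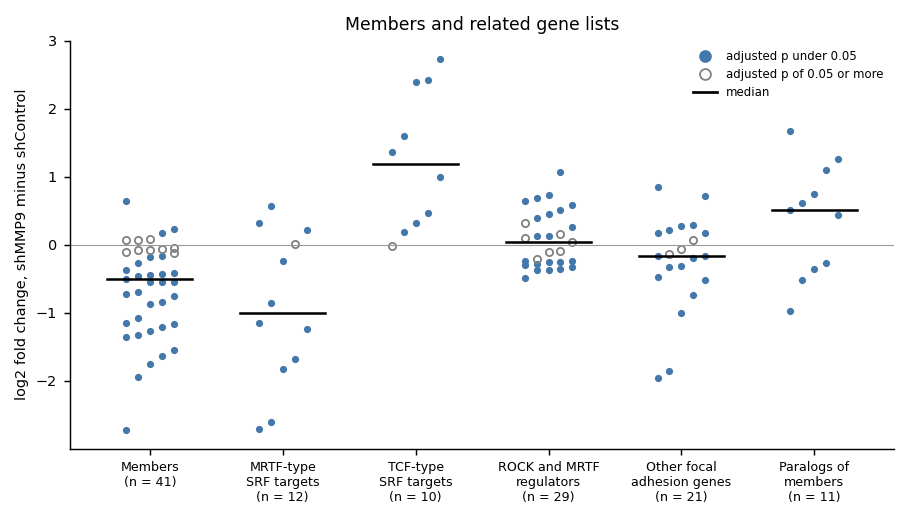
Points are tested genes of each list, by log2 fold change (filled, adjusted p under 0.05; open, 0.05 or more), and bars are medians. The medians lie at -0.50 for the members, -0.999 for MRTF-type and 1.18 for TCF-type SRF targets, and 0.05 for the regulators.

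Of 21 further focal adhesion and stress fibre genes 11 fell (52.4%) and 7 rose (33.3%), with a median of -0.16. Over all genes tested, 32.5% fell and 25% rose. PALLD, palladin, a stress fibre scaffold, fell from 85.6 ± 3.63 to 21.4 ± 0.709 (SD, n = 3, log2 fold change -1.95, adjusted p = 1.18e-11). TNS1, tensin, stood at -1.85, the second talin gene TLN2 at -1.001 and the vinexin gene SORBS3 at -0.73. LPXN, leupaxin, a paxillin relative, rose by 0.85 and the kindlin gene FERMT1 by 0.72.

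Some markers of other cell types were expressed, and they moved in both directions. Smooth muscle markers with values (4 of 8) summed to 100 to 117 scaled counts in shControl and 83.9 to 90.2 in shMMP9, nearly all from SMTN, which many cells express, at 104 ± 8.43 and 84.7 ± 2.89. MYH11, the smooth muscle myosin heavy chain, stayed at 1.03 or less in each library. Fibroblast markers (7 of 7) summed to 46.1 to 52.2 in shControl and 27.0 to 29.9 in shMMP9, endothelial ones (5 of 5) to 55.2 to 64.3 and 21.8 to 25.3, keratinocyte ones (3 of 5) to 70.0 to 81.6 and 127 to 136, and leukocyte ones (2 of 5) to 2.46 to 2.91 and 7.24 to 7.69. The endothelial sum was carried by TIE1, which went from 49.9 ± 3.41 to 4.56 ± 0.617 (log2 fold change -3.20). KDR and PECAM1 of the same list rose by 1.20 and 0.47, and VWF was at 1.01 ± 0.434 and 0.811 ± 0.343. CDH5 held 20, 18 and 27 estimated reads in shControl and 2, 2 and 5 in shMMP9. It passed the filter on low values through shControl alone, so no test is given for it. KRT10, which carried the keratinocyte sum, rose from 71.6 ± 6.12 to 111.6 ± 3.73 and KRT14 by 2.04, while KRT5 had a mean of 0.37 or less in both groups. Among fibroblast markers PDGFRA rose by 1.05 and PDGFRB, LUM and DCN fell by 0.43, 0.77 and 0.41. Of the fibrillar collagens that define fibroblasts, COL1A1 went from 18.4 ± 1.85 to 3.15 ± 0.496 (SD, n = 3, log2 fold change -2.23, adjusted p = 2.99e-09), and COL1A2 and COL3A1 were at 0.52 or less in every library. The part of these marker changes in the members' results was not tested.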

How the data were processed

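The submitters' processing notes name STAR 2.6.1d, Partek and hg38, with no role or order. How reads were counted, with which annotation and whether by strand, is not given in the sources used here. Values deposited by the authors are on a log2 scale, log2(scaled count + 1), which was worked out from the values: back-transformed upper quartiles were 45.3 to 45.4 in all libraries, and 64.6 to 67.7% of values were whole multiples (within 0.01 reads) of the lowest. These steps gave estimated reads. The design named a count test only for raw counts, so limma 3.58.1 (in R 4.3.3), its empirical Bayes step following the mean-variance trend, was run on the deposited log2 values. The low-value filter asked for 10 reads (at median depth) in 3 libraries and 15 across all 6, leaving 17194 genes and dropping 1345. Benjamini-Hochberg adjustment ran over all 17194, and calls are at 0.05. The script was tested on simulated data.

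Members and lists were chosen with earlier results of these data known. The text names MMP9, every member, up to 6 genes of each further list by smallest adjusted p, 5 pathway regulators and the markers, with exceptions marked. One gene of the further lists is not reported here and was left out of their counts. Symbols were matched to GENCODE release 29 (GRCh38) for positions and lengths. The alternatives were leaving out each library, a replicate block, other scalings, no filter, pseudocounts of 0.25 and 4, no variance trend, limma-voom and a threshold of 0.01. Figures were drawn with matplotlib 3.10.9.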

Additional observations from a re-analysis of the deposited data

How the results depend on the processing

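Of the 41 members, 31 kept their direction and their side of the threshold under all 15 alternatives. SRF and CAVIN1, which passed under none of them, changed sign near 0 (ranges of -0.10 to 0.01 and -0.01 to 0.13). The other 8 (ACTN1, TAGLN2, TPM3, MYH10, MYL6, PXN, TGFB1I1 and VIM) are given above with their values. Of these, VIM also changed sign (range of -0.13 to 0.005). No called member changed sign under any of the alternatives. The number of members that fell lay between 27 and 32 and the number that rose between 2 and 4. The median over the members was -0.43 with a pseudocount of 4, which shrinks the changes of weak genes by construction. Deviations from the group mean were hardly correlated between same-numbered libraries (0.04, -0.13 and -0.03 for replicates 1 to 3). Not every library correlated best with its own number. Within a group the deviations of a gene sum to 0, and these values cannot decide whether the numbers pair the samples. With the replicate number as a block 29 members fell and 3 rose, and 5486 genes fell and 4211 rose in all, against 5584 and 4304 without it. Depth limits CNN1 and FLNC, and the number of libraries limits small changes such as those of PXN and TAGLN2.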

Other observations

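Paralogs of the members moved in both directions. Of 11 tested, 7 rose (63.6%, against 25% of all genes) and 4 fell (36.4%, against 32.5%), with a median log2 fold change of 0.52. NES, which encodes the neural crest and progenitor intermediate filament nestin, rose from 150 ± 13.7 to 479 ± 9.32 scaled counts (SD, n = 3, log2 fold change 1.67, limma adjusted p = 8.47e-11), beside a VIM value that overlapped between groups. CAVIN3 rose by 1.11, and MYH14, the heavy chain of myosin IIC, by 1.27 from a low level of 7.89 ± 0.99. PDLIM4 rose by 0.52, while PDLIM2 had a log2 fold change of -0.97. The B-type lamin gene LMNB2 fell by 0.52 while LMNA rose, and LMNB1, chosen after its value was seen, fell by 0.36.

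MYOCD, the cardiac and smooth muscle relative of the MRTFs, held 130, 121 and 116 estimated reads in shControl and 1, 1.65 and 1 in shMMP9. It passed the filter on low values through shControl alone, so no test is given. Its level was 4.30 ± 0.351 scaled counts in shControl.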
